A study of Mus musculus with 2 samples.

Results

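Cells that carried transcripts of both Map2 and Tbx20 were described in the ventral library of a study of the mouse cardiac base. The library was made from cells of 15 hearts of 3-day-old C57Bl6 mice of both sexes. The ventral dissection took the roots of the great arteries (aorta and pulmonary artery) with the outflow tract beneath them, and its cells were pooled over the hearts and kept in adherent culture for 5 days before 3' single-cell sequencing. A dorsal pool, which took in the pulmonary veins, the sinoatrial node and the ganglia, was handled the same way, and the labels give no treatment or genotype that sets cells apart. Each domain was 1 library, so there were no biological replicates, no difference was tested between cells, and all intervals below are 95% intervals that cover counting error only.

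A barcode counted as a cell when it had at least 8000 unique molecular identifiers (UMIs, one for each captured transcript molecule) and at most 20% of them from mitochondrial genes. A ventral cell belonged to the Map2 Tbx20 group when it had at least 2 UMIs of Map2, at least 1 of Tbx20, fewer than 3 of Myh11, and did not have all 3 of Cd200, Cxcl12 and Angpt2 detected. The members were thus chosen by measured values of these 6 genes. By this rule 690 of 10649 ventral cells were members, a share of 6.48% (Clopper-Pearson interval 6.02 to 6.96), out of 19575 cells in both libraries. The same gene conditions were met by 31 of 8926 dorsal cells, a share of 0.347% (0.236 to 0.493), and those 31 cells had a median of 45077 UMIs, against 22742 in the remaining dorsal cells.

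Map2 encodes a microtubule-associated protein best known from the dendrites of neurons, where it bundles and stabilises microtubules. Tbx20 encodes a T-box transcription factor of the developing heart that is active in the myocardium, the endocardium and the mesenchyme of the cushions that become valves. Myh11, the smooth muscle myosin heavy chain, and the surface and secreted proteins encoded by Cd200, Cxcl12 and Angpt2 were used by the rule to leave out contractile cells and cells with a profile of the arterial base. Map2 lies on chromosome 1 (GRCm38, 66175273 to 66442583, plus strand) and Tbx20 on chromosome 9 (24718138 to 24774303, minus strand).

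The ventral matrix held 264822916 UMIs over all barcodes, and the dorsal matrix 246920028. Members together held 20022695 UMIs, and the other 9959 ventral cells 233080895. The median was 26101 UMIs and 4779 genes per member (range 8673 to 81669 UMIs), against 21197 UMIs and 4278 genes in other ventral cells, so members were the deeper group. The median mitochondrial share was 3.93% in members and 4.13% in other ventral cells. Scrublet, a caller of barcodes that may hold 2 cells, marked 45 members (6.52%) and 5.01% of other ventral cells. Both libraries held 22 cell barcodes in common, and 3 of these were members.

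The rule drew a line through a continuous range of values, and no test was made on it. Map2 stood at exactly 2 UMIs in 320 members, the median was 3 and the highest count was 17. Tbx20 stood at exactly 1 UMI in 241 members, with a median of 2 and a highest count of 15. A further 764 cells that met every other condition had 1 UMI of Map2, just outside the rule, and 319 cells with at least 2 UMIs of Map2 had no Tbx20 UMI. Of the 932 cells with both genes at the required counts, 62 were left out for Myh11 and 180 for carrying Cd200, Cxcl12 and Angpt2 together, while 280 members carried 2 of those 3 genes and 7 members had 2 UMIs of Myh11. Tubb3, a gene described further below, stood at 85.8 CPM in members with 2 UMIs of Map2 and at 62.4 CPM in the 764 cells with 1 UMI, where CPM is a gene's UMIs scaled to a fixed total per group of cells.

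Among the 6816 cells that passed the exclusions, Tbx20 was detected in 68.4% of the 1009 with at least 2 UMIs of Map2 (65.4 to 71.2) and in 53.6% of the 5807 with fewer (52.3 to 54.9). After every cell was thinned at random to 8000 UMIs, which puts all cells at 1 depth, the shares were 40.0% of 375 cells and 31.3% of 8166 cells. The rule read on thinned cells left 150 members, 128 of which were members on all UMIs. Summed over cells, Map2 stood at 117 CPM in members and 20.6 in other ventral cells, and Tbx20 at 94.4 and 47.7 CPM. The direction of both gaps was set by the rule. Tbx20 alone did not set members apart, since it reached 121 CPM in cells that expressed Fmod and Scx, genes of tendon-like matrix, described further below.

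Members carried the transcripts of fibroblast-type mesenchyme. All 16 genes of a mesenchyme and fibroblast list were measured and all 16 lay within 2-fold of the other ventral cells, with a median log2 ratio of 0.07. Col1a1, a chain of type I collagen, stood at 2876 CPM in members and 2827 in other ventral cells, and Sparc, a collagen-binding matrix protein, at 7554 and 7434 CPM. Tcf21, a transcription factor of cardiac fibroblast progenitors, was the highest of the list at 184 CPM in members and 98.8 in other ventral cells, a log2 ratio of 0.90 (0.84 to 0.95). Dcn and Lum, which encode small collagen-binding proteoglycans, were the lowest: Dcn stood at 794 CPM in members and 1331 in other ventral cells, and Lum at 266 and 448 CPM. The label of a mesenchyme fitted these markers.

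Genes of neurons were few in members and most stood at low levels. Of the 15 genes of a neuron list, 7 reached 50 UMIs over both groups, of which 2, Tubb3 and Dbh, were at least 2-fold higher in members and 0 lower, with a median log2 ratio of 0.46. Among all 14330 genes with at least 50 UMIs over both groups, 0.761% were higher and 8.74% lower by 2-fold, with a median of -0.05. Against Gpx3-Adamtsl2 cells and arterial-base cells, both defined further below, the list's median was 0.99 and 1.42. Tubb3, the neuronal class III beta-tubulin, made up 115 of the 137 CPM that the list summed to in members, against 30.3 of 47.1 CPM in other ventral cells. Rbfox3, which encodes the neuronal nuclear antigen, and Dcx, a microtubule protein of migrating neurons, had 0 UMIs in members, which allows up to 0.150 CPM. Snap25 and Th, genes of synaptic release and of catecholamine synthesis, had 1 UMI each. The 9 UMIs of Phox2a lay in 1 member (0.145% of members). Dbh, an enzyme of noradrenaline synthesis, stood at 2.55 CPM in members and 0.686 in other ventral cells, with a log2 ratio of 1.89 (1.41 to 2.35). With cells carrying markers of another type left out of both sides, as described further below, more of the list was higher. Log2 ratios there were 3.23 (2.49 to 3.96) for Prph, 1.94 for Dbh, 1.85 for Tubb3 and 1.11 for Gap43. Elavl4 stood at 0.43 and Stmn2 at -0.17. Prph was at 1.73 CPM in members and 0.185 in other ventral cells. The filter had no criterion for neurons but had one for glia, met by 0.435% of members and 1.96% of other ventral cells. Part of the higher ratios may be set by the filter, which was not tested.

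Among genes of microtubules, Tubb3 differed most and is given in full further below. The 16 measured genes of a microtubule list of 17, which does not hold Tubb3 or Map2, lay within 2-fold of the other ventral cells, with a median log2 ratio of 0.07. Tuba1a, an alpha-tubulin, stood at 1905 CPM in members and 1220 in other ventral cells (log2 ratio 0.64, 0.63 to 0.66), and Tubb2a, a beta-tubulin, at 290 and 202 CPM. Map6, which stabilises microtubules against cold, stood at 35.3 and 23.3 CPM. Mapt, which encodes tau, was barely detected at 0.699 CPM in members and 0.588 in other ventral cells. Map1b, another protein of the family, stood at 99.5 and 112 CPM.

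Differences between members and other ventral cells were few. Among 5432 genes that reached 20 CPM in either group, rule genes left out, 22 were at least 2-fold higher in members (0.405%) and 81 at least 2-fold lower (1.49%), and the median log2 ratio was -0.00. The comparison includes ventral cells that the rule removes by design, namely those with Myh11 or with the arterial-base genes, and cells of other types. Markers of another cell type, at least 3 detected from a short list for macrophages, endothelium, mesothelium, glia or cardiomyocytes, were found in 35 members (5.07%) and in 15.6% of other ventral cells. The widest gap was in the mesothelial list, which 2.46% of members and 10.4% of other ventral cells met. A low share was not particular to members. In groups defined further below, it was 2.97% of arterial-base, 3.28% of Gpx3-Adamtsl2 and 4.74% of Fmod-Scx cells. It was 26.0% of cells that passed the exclusions and met neither the Map2 nor the Tbx20 condition. All cells with markers of another cell type were then left out of both sides, an alternative chosen after seeing the data. There, 21 of 5347 genes were higher (0.393%) and 59 lower (1.1%). Of the 22 and 81 genes of the full comparison, 16 and 44 were shared.

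Tubb3 had the highest ratio of all these genes. It stood at 115 CPM in members (111 to 120) and at 30.3 CPM in other ventral cells (29.6 to 31.0), a log2 ratio of 1.93 (1.862 to 1.998). At least 1 UMI was found in 63.2% of members and 28.0% of other ventral cells, and after thinning in 41.0% and 14.4%. Macrophage-type cells, which should lack the gene, had it in 2.84% after thinning, at a median of 26828 UMIs per cell. Tubb3 lies on chromosome 8 (GRCm38, 123411424 to 123422015, plus strand). The log2 ratio ranged from 1.71 to 1.97 over all settings tried and was 1.85 without cells of other types.

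The next highest were Ankrd1 and Hsd11b1. Ankrd1, a stretch-responsive ankyrin-repeat protein of striated muscle and a target of the YAP pathway, stood at 439 CPM in members and 152 in other ventral cells, a log2 ratio of 1.53 (1.496 to 1.563). It was detected in 61.7% of thinned members, in 28.9% of other thinned cells and in 6.38% of macrophage-type cells. Hsd11b1, the enzyme that regenerates active glucocorticoid inside cells, stood at 143 and 51.3 CPM (1.48, 1.42 to 1.54). Sox9, a transcription factor of cartilage and of valve mesenchyme, stood at 60.2 and 24.5 CPM (1.30, 1.21 to 1.39), with a UMI in 28.1% of thinned members and 14.3% of other thinned cells. All 4 genes kept a log2 ratio above 1 under each of the alternatives.

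The other 11 of the 15 genes with the highest ratios had a range of roles. Spon2, a secreted F-spondin relative, stood at 102 CPM in members and 36.7 in other ventral cells. Adamtsl2, which binds fibrillin microfibrils and the latent form of TGF-beta, stood at 153 and 64.3 CPM. Lama2, a laminin chain of basement membranes, stood at 52.3 and 23.0 CPM, and Fndc1, a fibronectin-domain protein, at 86.0 and 38.3 CPM. Adgrg6, an adhesion receptor needed in mice for heart development and for myelination, stood at 30.3 and 12.8 CPM. Scg2, a granin of secretory granules, stood at 39.4 and 16.1 CPM, Il6, an inflammatory cytokine, at 27.9 and 11.7 CPM, and G0s2, an inhibitor of lipolysis, at 198 and 91.2 CPM. Cst6, Kcne4 and Ism1 completed the set, with log2 ratios from 1.18 to 1.34.

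**Figure D1:**
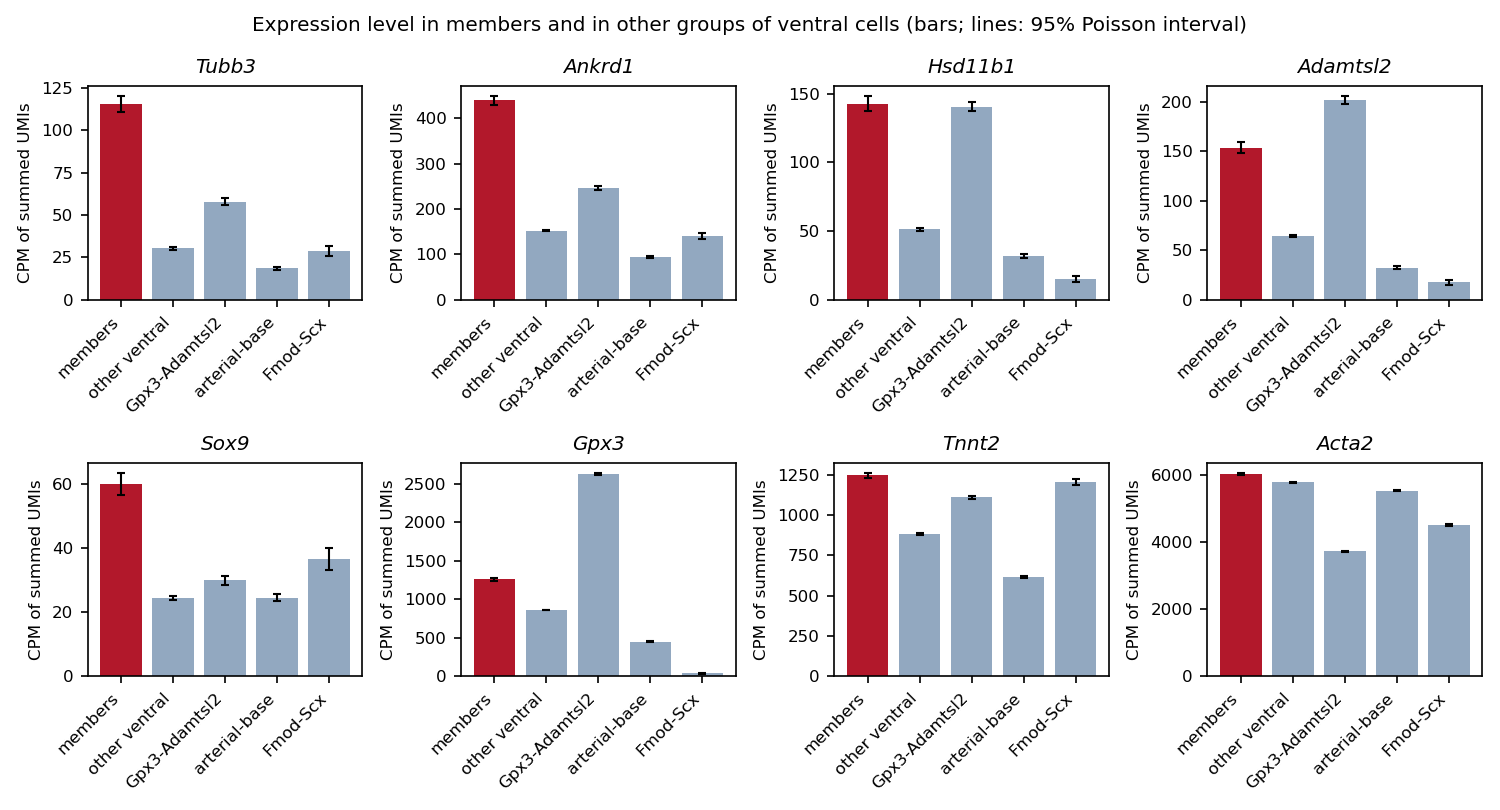
CPM of 8 genes in members (red, leftmost bar) and in other groups of ventral cells (blue), with 95% Poisson intervals. Tubb3, Ankrd1 and Sox9 are highest in members, Adamtsl2 and Gpx3 are highest in Gpx3-Adamtsl2 cells, and Acta2 is at 3739 CPM or more in the groups shown.

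The 15 lowest ratios included genes of pericytes, of mesothelium, of cardiomyocytes and of the acute-phase response. Rgs5, a pericyte regulator of G-protein signalling, stood at 3.25 CPM in members and 36.2 in other ventral cells, a log2 ratio of -3.48 (-3.85 to -3.13). Saa3, an acute-phase protein, stood at 127 and 1034 CPM (-3.02), and Hp, which encodes haptoglobin, at 8.89 and 66.9 CPM (-2.91). Spp1, the secreted protein osteopontin, stood at 11.4 and 87.0 CPM, and Rspo3, a secreted enhancer of Wnt signalling, at 11.5 and 51.8 CPM. Msln, Lrrn4, Upk1b, Upk3b, Krt7 and Krt8, genes of mesothelial cells, had log2 ratios between -2.87 and -2.04, and Msln stood at 20.3 CPM in members and 131 in other ventral cells.

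Leaving out cells with markers of another type from both sides moved some of these genes more than others. The criterion covers mesothelium and cardiomyocytes but not pericytes, so a move of mesothelial and cardiomyocyte genes toward 0 is in part set by the filter. Without them, Msln stood at 3.36 CPM in members and 5.49 in other ventral cells, a log2 ratio of -0.71 (-1.10 to -0.34). Krt8 stayed at -2.30 (-3.76 to -1.16), on only 0.325 CPM in members and 1.60 in other ventral cells, and Krt7 stood at -0.74. Upk1b and Upk3b turned to 0.04 (-0.63 to 0.65) and 0.43 (0.03 to 0.80), and the atrial myosin light chain gene Myl7, at -3.18 in the full comparison, to 0.24. Rgs5 stayed low at 3.47 CPM in members and 43.0 in other ventral cells (-3.63), Rspo3 at 9.91 and 59.0 CPM (-2.57), Hp at 9.37 and 54.4 CPM (-2.54), and Saa3 at 57.9 and 237 CPM (-2.03). No criterion took out pericyte-like or Myh11-rich cells with Rgs5. Against other mesenchymal cells, all with fewer than 3 UMIs of Myh11, Rgs5 stood at 3.25 and 23.3 CPM (-2.84, -3.22 to -2.49). Against Gpx3-Adamtsl2 cells, described further below, 0 of 6 measured pericyte genes were at least 2-fold lower, beside 1.41% of all genes. The lowest log2 ratio among those 6 was -0.48. Against arterial-base cells, 3 of 8 measured pericyte genes were at least 2-fold lower, beside 4.48% of all genes, and the lowest was -3.08.

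Several abundant matrix and growth factor genes were at least 2-fold lower in members in the comparison without cells of other types. These were named after their values were seen. Mgp, the matrix Gla protein that inhibits calcification and binds BMPs, stood at 3646 CPM in members and 8528 in other ventral cells (log2 ratio -1.23, -1.24 to -1.21). Eln, which encodes elastin, stood at 4729 and 9642 CPM (-1.03), Igfbp3, a carrier of insulin-like growth factors, at 75.2 and 232 CPM (-1.63), and Igfbp2 at 132 and 509 CPM (-1.95). Epha3, an ephrin receptor, stood at 25.1 and 75.2 CPM (-1.58). Acan, the cartilage proteoglycan aggrecan, stood at 7.31 and 38.3 CPM (-2.39), and Sost, an inhibitor of Wnt signalling, at 1.35 and 23.5 CPM (-4.12). The other ventral cells include cells with at least 3 UMIs of Myh11 and 2893 arterial-base cells, which the rule keeps out of the members. The 12 genes of an elastic fibre list summed to 9309 CPM in members, 17019 in arterial-base cells and 8569 in Gpx3-Adamtsl2 cells. Of these genes, 0 were at least 2-fold lower in members than in Gpx3-Adamtsl2 cells, near the 1.41% over all genes.

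**Figure D2:**
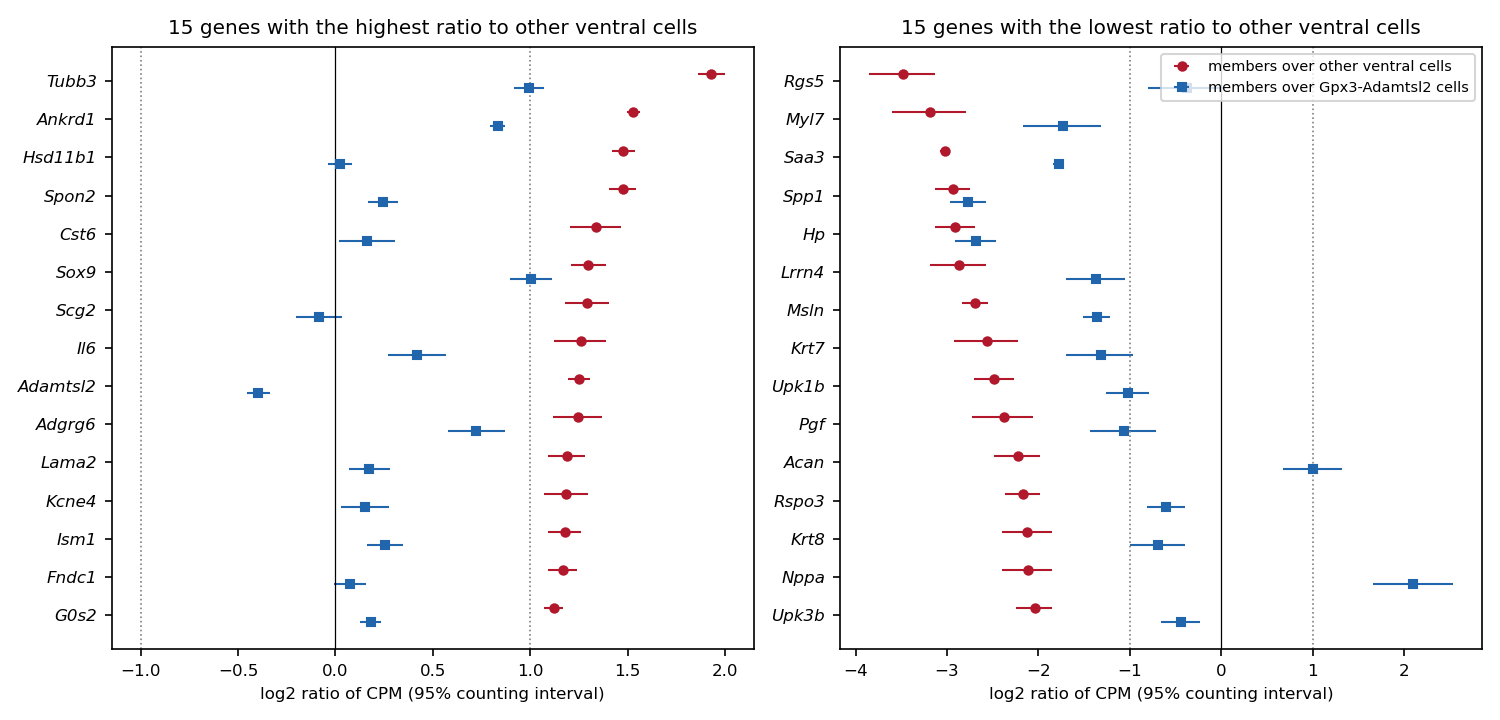
Log2 ratios of CPM with 95% counting intervals for the 15 genes with the highest (left panel) and the 15 with the lowest (right panel) ratio of members to other ventral cells (red circles), beside the ratio of members to Gpx3-Adamtsl2 cells (blue squares). Against Gpx3-Adamtsl2 cells, most of the 15 highest genes lie near 0 while Tubb3, Ankrd1, Sox9 and Adgrg6 are at 0.72 or higher. Adamtsl2, shown among the 15, is a gene that chose the Gpx3-Adamtsl2 cells.

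Members were then set against 3 groups of ventral cells named for other genes, called the like groups here. Gpx3-Adamtsl2 cells were 2411 cells with at least 3 UMIs of Gpx3, a secreted glutathione peroxidase, and 1 of Adamtsl2. Fmod-Scx cells were 464 cells with at least 3 UMIs of Fmod, a collagen-binding proteoglycan, and 1 of Scx, the transcription factor of tendon progenitors. Arterial-base cells were 2893 cells with Cd200, Cxcl12 and Angpt2 all detected. All 3 groups had fewer than 3 UMIs of Myh11 and held no member. Arterial-base cells were also kept out of the Gpx3-Adamtsl2 group, and cells of both those groups were kept out of the Fmod-Scx group. The genes that chose a group were left out of the counts over all genes at 20 CPM in its comparison. Median depths were 20680, 24783 and 22032 UMIs in the order in which the groups are named here.

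Of these 3 groups, Gpx3-Adamtsl2 cells differed from members at the fewest genes. This order is in part set by how the groups were chosen. The rule kept arterial-base cells out of the members, and the Fmod-Scx group held no Gpx3-Adamtsl2 cell. Members with Gpx3 and Adamtsl2 were not left out, and their number is not given. Against Gpx3-Adamtsl2 cells, 28 of the 5376 genes that reached 20 CPM were at least 2-fold higher in members (0.521%) and 17 lower (0.316%). Against arterial-base cells 73 of 5403 genes were higher (1.35%) and 89 lower (1.65%), with 2.01% higher and 4.48% lower among the 12735 genes that had at least 50 UMIs. Against Fmod-Scx cells, 131 of 5412 genes were higher (2.42%) and 90 lower (1.66%). Of the 15 genes with the highest ratios to all other ventral cells, 15 were at least 2-fold higher in members than in arterial-base cells, 13 than in Fmod-Scx cells, and 1 than in Gpx3-Adamtsl2 cells, where their median log2 ratio was 0.18. Hsd11b1 stood at 143 CPM in members and 140 in Gpx3-Adamtsl2 cells, against 31.7 in arterial-base cells and 15.1 in Fmod-Scx cells. Adamtsl2, which chose the group, is still among these 15 genes, and it stood at 153 CPM in members and 202 in Gpx3-Adamtsl2 cells. The 15 genes had been picked for their ratio to a set of cells that includes all 3 groups, so these counts describe them and are not separate evidence.

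A smaller set of genes was higher in members than in each like group. Ranked by the lowest of the 3 ratios, the first 10 were Tubb3, Tmem37, Ankrd1, Ccl20, Adgrg6, Sox9, Adamts5, Limch1, Zdhhc2 and Fabp5, with lowest log2 ratios from 0.99 to 0.63. Tubb3 stood at 115 CPM in members, 57.9 in Gpx3-Adamtsl2 cells, 18.5 in arterial-base cells and 28.6 in Fmod-Scx cells. Ankrd1 stood at 439 CPM in members, 247 in Gpx3-Adamtsl2 cells, 93.9 in arterial-base cells and 140 in Fmod-Scx cells. Adamts5, the aggrecanase that cleaves versican in the remodelling of heart valves, stood at 584 CPM in members, 360 in Gpx3-Adamtsl2 cells, 293 in arterial-base cells and 192 in Fmod-Scx cells. Tubb3 and Ankrd1 were thus above every like group beyond their counting intervals.

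Ccl20, a chemokine, stood at 67.7 CPM in members and 37.7 in other ventral cells, and 18.6% of members and 11.5% of other ventral cells had a UMI of it. Its log2 ratio of 0.84 turned to -1.22 when the rule was read on thinned cells. Fabp5, a fatty acid binding protein, stood at 2736 CPM in members and 1559 in other ventral cells, but also at 8733 CPM in macrophage-type cells. Tmem37, a calcium channel subunit relative, stood at 97.1 and 45.1 CPM, with 90.4 CPM in macrophage-type cells. Limch1, an activator of non-muscle myosin, stood at 68.9 and 35.8 CPM, with 12.1 CPM in macrophage-type cells. The macrophage criterion was met by 9 members (1.30%) and by 1.42% of other ventral cells.

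Contractile genes followed different patterns. Tnnt2, the cardiac troponin T of sarcomeres, stood at 1248 CPM in members and 883 in other ventral cells, a log2 ratio of 0.50 (0.48 to 0.52), and was detected in 90.4% of thinned members, 74.1% of other thinned cells and 35.5% of macrophage-type cells. It was about as high in Fmod-Scx cells, at 1205 CPM, and in Gpx3-Adamtsl2 cells, at 1109 CPM, and lower in arterial-base cells, at 617 CPM. Several other genes particular to the sarcomere of cardiomyocytes were low. Myh6, the atrial myosin heavy chain, stood at 4.10 CPM in members and 8.18 in other ventral cells, Actn2, the Z-disc alpha-actinin, at 1.5 and 2.78 CPM, and Tnni3, cardiac troponin I, at 2.90 and 8.34 CPM. Of the 18 genes of a cardiomyocyte list, 0 were at least 2-fold higher and 8 at least 2-fold lower in members, with a median of -0.99, against 0.761% higher and 8.74% lower over all genes. That median did not keep its direction: it was 0.28 with a mitochondrial limit of 10% and 0.63 against other mesenchymal cells. Against arterial-base cells it was 0.85, with 4 of 16 measured genes at least 2-fold higher (2.01% of all genes) and 0 lower (4.48%). Against Gpx3-Adamtsl2 cells it was -0.24, with 1 of 16 at least 2-fold higher and 2 lower, beside 1.41% each way. The sum of the list, most of it Tnnt2, was 1438 CPM in members and 1125 in other ventral cells. In the comparison without cells of other types, Tnnt2 stood at 1231 CPM in members and 851 in other ventral cells, and Myh6 at 0.542 and 0.459 CPM. Of the same list, Sorbs2 stood at 112 and 71.8 CPM there, Myl4 at 13.9 and 10.8 CPM, and Tnnc1 at 3.47 and 9.14 CPM.

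Smooth muscle genes were present in members, without Myh11 by choice. Acta2, smooth muscle actin, stood at 6046 CPM in members and 5790 in other ventral cells, and at 3739 CPM in Gpx3-Adamtsl2 cells, where the log2 ratio was 0.69. Tagln, an actin-binding protein, stood at 3010 and 2957 CPM in members and other ventral cells. Cnn1, the calponin of contractile smooth muscle, stood at 69.0 and 134 CPM, and Myocd, the co-activator of the contractile programme, at 3.90 and 7.79 CPM. Of the 14 genes of the list, 0 were at least 2-fold higher and 1 lower, with a median of -0.38, beside 0.761% higher and 8.74% lower over all genes. Against Gpx3-Adamtsl2 cells the median was 0.49, and 2 genes were at least 2-fold higher, Cnn1 with 69.0 CPM in members and 17.9 in Gpx3-Adamtsl2 cells, and Myocd with 3.90 and 1.73 CPM. The background of that comparison was 1.41% of 12378 genes higher and 1.41% lower.

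Transcription factors of the heart were mixed. Gata4, a zinc-finger factor of early heart formation, stood at 22.8 CPM in members and 14.8 in other ventral cells (0.63, 0.48 to 0.77), and Hand2, a factor of the outflow tract and the neural crest, at 49.6 and 41.7 CPM. Gata6 stood at 96.4 and 141 CPM, and Mef2c at 66.0 and 109 CPM. Nkx2-5 and Isl1, which mark cardiac progenitors, were barely detected, at 1.30 and 2.05 CPM and at 0.799 and 1.57 CPM. Of 18 such factors, Tbx20 not included, 0 were at least 2-fold higher and 4 lower, with a median of -0.57, beside 8.74% lower and a median of -0.05 over all genes. Against Gpx3-Adamtsl2 cells, 0 of 13 measured factors were higher and 0 lower, with a median of -0.16, beside 1.41% lower over all genes. Among 14 measured factors of neural crest and cushion mesenchyme, Sox9 alone was at least 2-fold higher, and Tfap2b alone was lower, with 2 UMIs in members. Twist1 stood at 46.3 and 47.5 CPM, and Snai1 at 63.8 and 40.8 CPM.

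Matrix genes of valves and cartilage differed within 1 list. Hapln1, a linker of hyaluronan and proteoglycans in cardiac cushions, stood at 4.44 CPM in members and 1.08 in other ventral cells (2.04, 1.67 to 2.39), yet at 8.71 CPM in Fmod-Scx cells. Col11a1, a fibril-forming collagen, stood at 595 and 331 CPM, with a log2 ratio of 0.85. Col8a1, a short-chain collagen, stood at 568 and 387 CPM, and Vcan, the proteoglycan versican, at 28.7 and 19.3 CPM. Tnc, the matrix protein tenascin C, stood at 25.1 and 53.4 CPM. The list had 1 gene at least 2-fold higher and 3 lower among 14 measured, with a median of 0.19, beside 0.761% higher and 8.74% lower over all genes. In the elastic fibre list, 0 of 12 were higher and 1 lower, and Eln and Fbln5 stood at 4615 and 356 CPM in members, against 8184 and 651 CPM in other ventral cells.

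Signalling lists differed in how many genes were lower in members, beside a background of 0.761% higher and 8.74% lower. In the BMP list 1 of 18 measured genes was at least 2-fold higher, Bmp6 with 2.0 CPM in members and 0.811 in other ventral cells, and 2 were lower. The TGF-beta list had 0 higher and 2 lower of 14, with Ltbp1, which anchors latent TGF-beta, at 16.3 CPM in members and 40.5 in other ventral cells. In the Wnt list 0 of 14 were higher and 7 lower, with a median of -1.03, and Sfrp2, a secreted Wnt modulator, stood at 117 and 280 CPM. The Notch list had 0 higher and 4 lower of 13, and the ligand Jag1 stood at 39.5 and 34.2 CPM. Aldh1a1, which makes retinoic acid, stood at 216 and 132 CPM, and the retinoic acid list had 0 higher and 3 lower of 11. Of the 16 chemokine and cytokine genes, 15 were measured, with 1 higher, Il6, and 3 lower, among them Cxcl13 at 0.300 and 10.9 CPM. The semaphorin guidance cue Sema3d stood at 84.1 CPM in members and 57.9 in other ventral cells. Against Gpx3-Adamtsl2 cells, where 1.41% of all genes were at least 2-fold lower, fewer Wnt and Notch genes were low. The Wnt list had 1 lower of 8 measured (median -0.24) and the Notch list 0 of 10 (-0.07). The chemokine and cytokine list still had 3 lower of 15 there (-0.29).

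**Figure D3:**
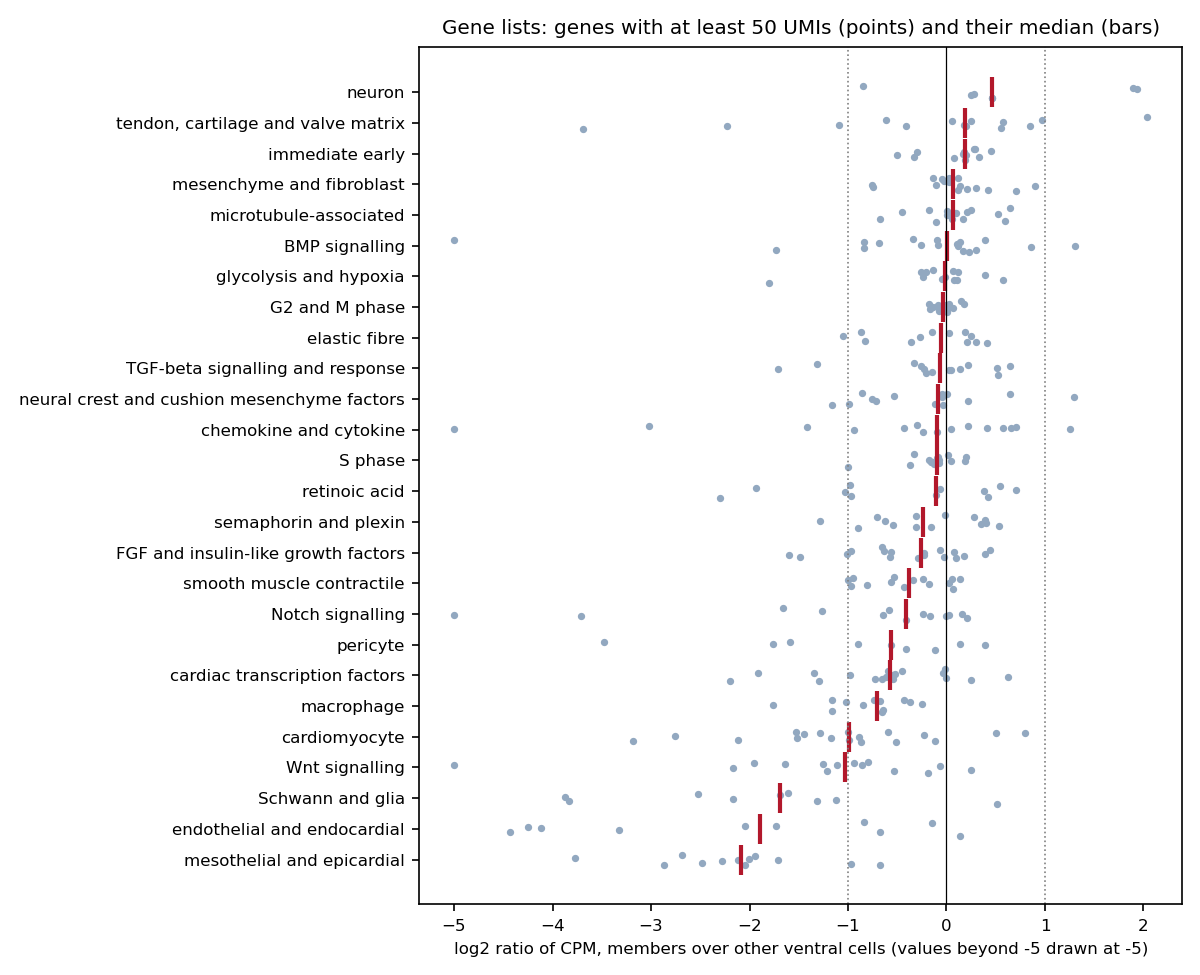
Log2 ratio of CPM, members over other ventral cells, for each gene with at least 50 UMIs (points) in 26 gene lists, with the list median (red bar). Medians of most lists lie close to 0, and those of the mesothelial, endothelial and Schwann lists lie lowest, at -2.08, -1.89 and -1.69.

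Lists for mesothelium, endothelium, pericytes, Schwann cells and macrophages were lower in members than in other ventral cells, as sums and as medians. Over all genes with at least 50 UMIs, 8.74% were at least 2-fold lower. The 12 mesothelial genes summed to 85.8 CPM in members and 391 in other ventral cells, and 10 were at least 2-fold lower. The 10 endothelial genes summed to 45.2 and 113 CPM, and the defining gene Cdh5, VE-cadherin, had 14 UMIs in members. The 9 pericyte genes summed to 69.3 and 131 CPM, with 3 lower and a median of -0.56. In the Schwann list 8 of 9 measured genes were lower, and Sox10 had 4 UMIs in members. Macrophage genes summed to 310 and 510 CPM with a median of -0.71. Within the members, 9 cells held 97.5% of the 518 UMIs of C1qb, a macrophage complement gene, and 77.3% of the UMIs of Lyz2, which encodes lysozyme. Without cells of other types, the medians were -0.12 for mesothelium, -0.26 for macrophages and 0.36 for Schwann cells, and -0.29 for the cardiomyocyte list. The endothelial and pericyte medians stayed below 0 under all settings tried, with highest values of -0.11 and -0.15. Against Gpx3-Adamtsl2 cells the medians were -0.58 for mesothelium, -0.32 for endothelium, -0.12 for pericytes, -0.15 for macrophages and 0.40 for Schwann cells. Against arterial-base cells the medians were -0.20, -2.12, -0.77, 0.59 and 0.23 in the same order. The Schwann and macrophage lists were thus not lower in members than in every like group. Fewer cells of a type and less RNA per cell cannot be told apart in such sums.

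The 16 genes of G2 and M phase lay within 2-fold of the other ventral cells, with a median of -0.03, which was 0.51 under the rule with at least 3 Map2 and 2 Tbx20 UMIs and -1.45 with the rule read on thinned cells. Of the cells, 10.3% of thinned members and 11.3% of other thinned cells had at least 3 of them detected. Against Gpx3-Adamtsl2 cells, where that share was 4.36%, 14 of the 16 genes were at least 2-fold higher in members, with a median of 1.14, beside 1.41% of all genes. Top2a, a topoisomerase of dividing cells, stood at 47.2 CPM in members, 49.9 in other ventral cells and 21.6 in Gpx3-Adamtsl2 cells. S phase genes had a median of -0.10 against other ventral cells. Lists for immediate early genes and for glycolysis had medians of 0.19 and -0.01 with 0 genes at least 2-fold higher.

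Members did not form 1 cluster. Leiden clustering of all ventral cells gave 20 clusters, and members were found in 18 of them. Cluster 6, led by Tubb3, Spon2 and Ankrd1, held 219 members, 31.7% of all, which made up 42.4% of its 517 cells (38.1 to 46.7). Cluster 7, led by Adamtsl2, Scg2 and Gpx3, held 154 members, or 14.8% of its cells. Cluster 11, led by Cxcl5 and Serpina3f, held 82, and cluster 0, led by Fmod, Cpxm2 and Scx, held 75. These 4 clusters together held 530 members, 76.8% of all, and 160 lay elsewhere, among them 37 in cluster 8, led by the DNA replication gene Rrm2, and 29 in cluster 17, led by the mitosis gene Cenpf. The clusters were made from the same genes, so their differences are a description.

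**Figure D4:**
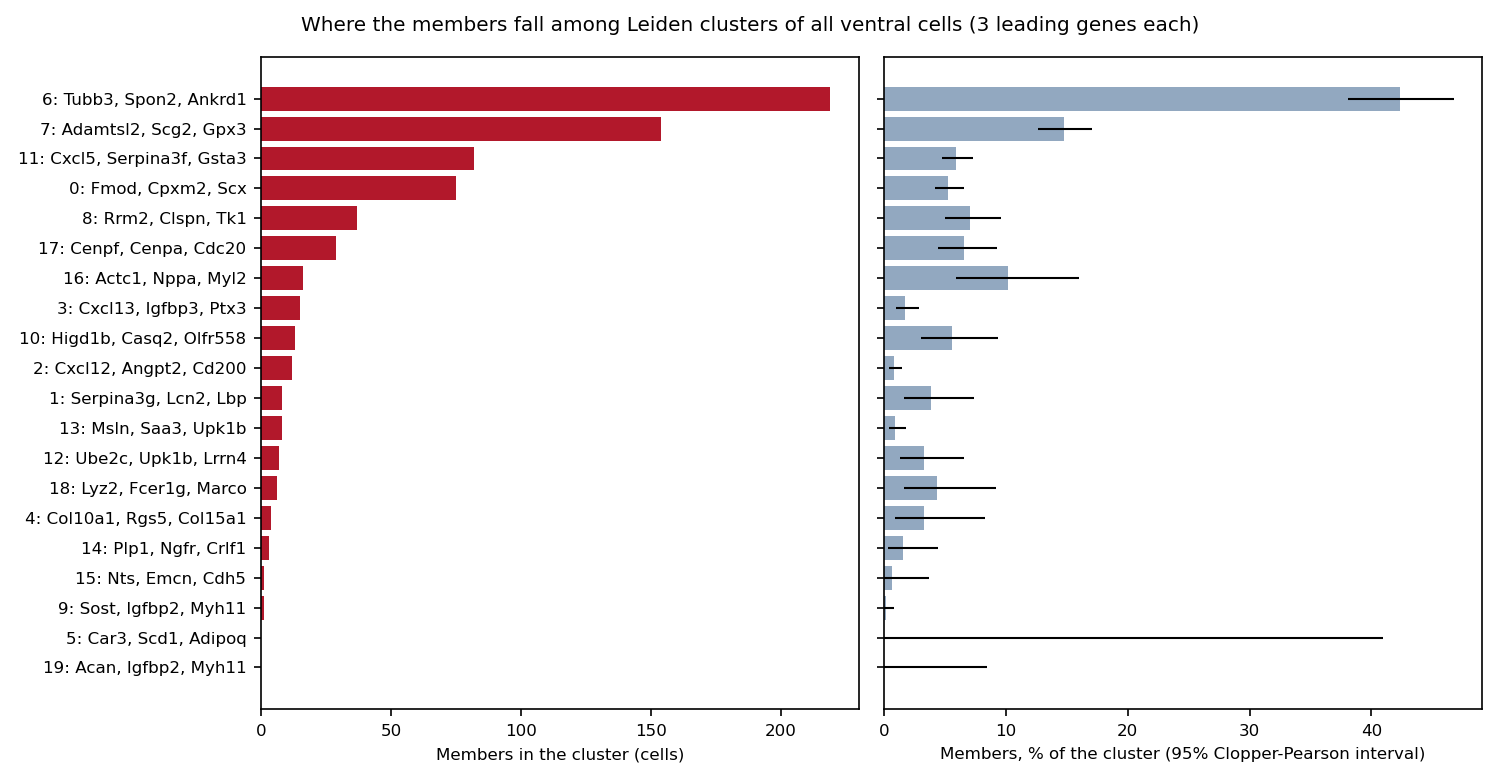
Members per Leiden cluster of all ventral cells (left panel, number of cells) and members as a percent of the cells in each cluster (right panel, with Clopper-Pearson intervals), with 3 leading genes named per cluster. Cluster 6 holds the most members and is the only one in which they exceed 40% of cells.

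The 4 clusters split the members by their matrix and contractile genes. Tubb3 stood at 213 CPM in members of cluster 6, 77.1 in cluster 7, 54.3 in cluster 11 and 64.8 in cluster 0. Members of cluster 6 also had Ankrd1 at 657 CPM, Sox9 at 98.9 and Adamts5 at 893 CPM, while members of cluster 11 had them at 176, 22.5 and 267 CPM. Gpx3 stood at 1493 CPM in members of cluster 6, 2191 in cluster 7, 1502 in cluster 11 and 54.2 in cluster 0. Members of cluster 0 instead had Fmod at 310 CPM, Hapln1 at 15.2, Tbx20 at 142 and Cnn1 at 189 CPM. Tnnt2 was above 800 CPM in all of these clusters, with 1145 CPM in cluster 6, 1845 in cluster 7, 835 in cluster 11 and 1385 in cluster 0. Median depths were 30306, 18768, 28113 and 24702 UMIs in the same order of clusters.

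Most members with genes of G2 and M phase lay outside those 4 clusters. Among the 160 members of the other clusters, 43.8% had at least 3 genes of G2 and M phase detected after thinning, against 0% in clusters 6, 7 and 11 and 1.33% in cluster 0. At least 3 genes of S phase were detected after thinning in 50.6% of the 160 members, and in 6.85% of members of cluster 6, 5.84% of cluster 7, 6.10% of cluster 11 and 2.67% of cluster 0. Top2a stood at 177 CPM in these 160 members and at 1.14 CPM in members of cluster 6. The macrophage gene Lyz2 stood at 539 CPM in the 160 members and at 49.0 CPM in members of cluster 6, and Msln at 67.6 and 4.54 CPM, so transcripts of other cell types were also concentrated there.

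Cells that met 1 or neither of the Map2 and Tbx20 conditions were compared next. Ventral cells that passed the exclusions were split into those with Map2 and no Tbx20 (319 cells), those with Tbx20 and fewer than 2 UMIs of Map2 (3111) and those with neither (2696). Against the cells with Map2 alone, 13 of 5344 genes were at least 2-fold higher in members (0.243%) and 22 lower (0.412%). Against the cells with Tbx20 alone, 11 of 5395 were higher (0.204%) and 43 lower (0.797%), and against cells with neither, 55 of 5595 were higher (0.983%) and 186 lower (3.32%). Tubb3 stood at 115 CPM in members, 90.5 in cells with Map2 alone, 40.5 in cells with Tbx20 alone and 23.3 in cells with neither. Hsd11b1 stood at 143 CPM in members, 77.0 with Map2 alone, 89.6 with Tbx20 alone and 37.7 with neither. Median depths were 26101, 24343, 21184 and 20634 UMIs in the same order.

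Levels also differed by the number of Map2 UMIs after all cells were thinned to 8000. In cells with at least 1 Tbx20 UMI, Tubb3 stood at 45.6, 66.4, 134 and 153 CPM with 0, 1, 2 and at least 3 Map2 UMIs. In cells without a Tbx20 UMI the values were 31.8, 95.3, 81.3 and 143 CPM, so the order was not the same throughout. Adamtsl2 stood at 117, 164, 200 and 200 CPM with Tbx20 and at 71.0, 117, 113 and 125 CPM without it. Gpx3 showed no such order, with 1548, 1936, 1702 and 942 CPM in cells with Tbx20. The bins with at least 3 Map2 UMIs held 37 and 50 cells. These levels are a description across cells of 1 library.

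**Figure D5:**
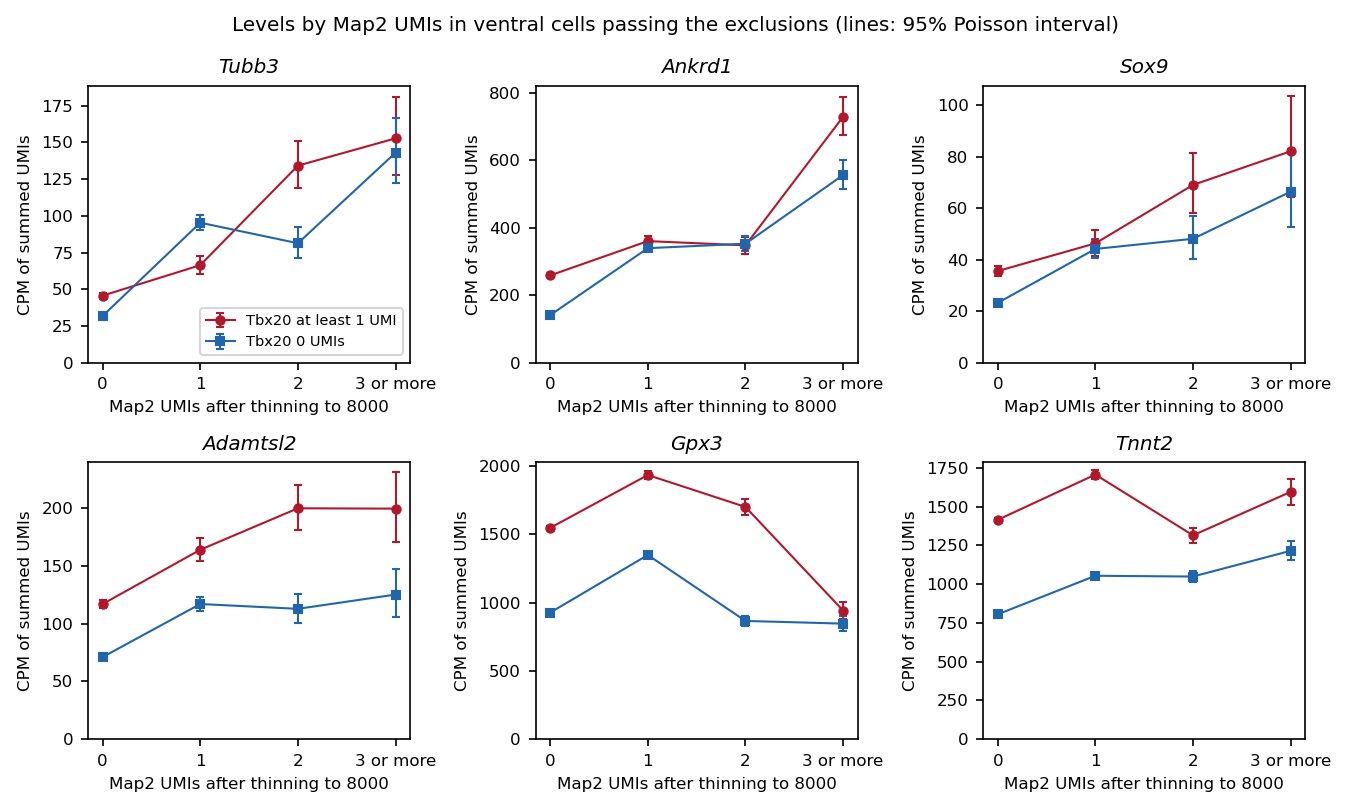
CPM of 6 genes by Map2 UMIs per cell after thinning to 8000 UMIs, in ventral cells that passed the exclusions, with at least 1 Tbx20 UMI (red) and with none (blue), with 95% Poisson intervals. Tubb3, Ankrd1 and Sox9 are higher at 3 or more Map2 UMIs than at 0 in both classes, and Gpx3 is not.

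Promoters were searched for letters that the T-box family and other cardiac factors bind, since Tbx20 is such a factor. RefSeq promoters on GRCm38.p6, running from 250 bases before to 50 after a gene's start, were given for 11 of the 15 genes with the highest ratios. The core GGTGTG, on either strand, was found in 1 of these 11 promoters (9.09%), against 19.0% of all 32851 promoters. The longer run AGGTGTGA, which contains the core, was found in 0 of 11 and in 1.28% of all promoters. The GATA letters AGATAA were found in 2 of 11 against 11.2% of all, and the E-box CATCTG in 2 of 11 against 17.2% of all. No match to these 4 runs of letters, on either strand, was found in the promoters of Map2, Tbx20 and Tubb3. Among the 15 genes and the 10 that were higher than in each like group, as far as promoters were given, only Ankrd1, on the minus strand of chromosome 19, and Ccl20, on the plus strand of chromosome 1, held the core, Ccl20 as part of the longer run, and each match is shown with its neighbours, read along the gene's strand and with the core or its complement in capitals. Such a match is a description of the letters and not a binding site.
Ankrd1, chr19:36120055-36120084: gcattgctgagcGGTGTGgtcactgccaaa
Ankrd1, chr19:36119903-36119932: ggtgggggcaggGGTGTGacttggcttccc
Ankrd1, chr19:36119841-36119870: atataacgggctGGTGTGgaggggctccac
Ccl20, chr1:83116587-83116616: ccacctgaccttCACACCttctcaacagta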

How the data were processed

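The 2 libraries, 1 from each domain, were made with 10x Genomics 3' v3 chemistry, per the labels' protocols. Reads were processed by the submitters with Cell Ranger 3.0.2 on mm10, per the submitters' processing notes, and which gene annotation they used is not given in the sources used here. What the authors deposited is an unfiltered matrix of raw UMI counts per library, with 28692 genes and 6794880 barcodes. Of the gene IDs, 28339 matched GENCODE M21 on GRCm38, from which positions were taken. Cells were barcodes with at least 8000 UMIs and at most 20% mitochondrial UMIs. Doublets were not removed, and Scrublet in scanpy 1.11.5 was run to count marked barcodes.

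UMIs were summed over the cells of a group and scaled to CPM. Intervals, all at 95%, were exact Poisson for CPM, exact conditional binomial for log2 ratios and Clopper-Pearson for shares. With 1 library per domain no test was made, and 2-fold counts over genes at 20 CPM or more in either group describe size. Gene lists were read over genes with at least 50 UMIs in both groups together. Where no UMI was seen, the limit printed is that of 3 counts. Clustering used 2000 variable genes, 30 components, 15 neighbours and Leiden resolution 1.

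Named genes were those at both ends of the ratio to other ventral cells, 15 at each end, the 10 ranked first by the smallest of their ratios to the 3 like groups, the 6 genes of the rule and members of 26 lists, leaving out mitochondrial, ribosomal protein and provisional names. Members and lists were chosen with earlier results of these data known. Alternatives covered the UMI and mitochondrial limits, the rule, thinning, doublets, edgeR 4.0.16 TMM factors, equal weight per cell, the CPM minimum, the cells compared, depth and cycling cells. Scripts were tested on simulated data. Some members of the lists are not reported here.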

Additional observations from a re-analysis of the deposited data

How the results depend on the processing

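The 15 genes with the highest ratios stayed above 0 under all 16 alternatives. They had been picked for high ratios in the same cells, and a change of the CPM minimum cannot alter a gene's ratio. At least 2-fold higher were 8 of the 15 against other mesenchymal cells and 12 without the exclusions. That number was 13 with the rule read on thinned cells, 13 without cells of other types and 15 in the rest. The member share was 6.48%, and it was 2.35% with at least 3 Map2 and 2 Tbx20 UMIs, 13.7% with at least 1 of each, 8.75% without the exclusions and 1.41% when the rule was read on thinned cells. The counts of genes at least 2-fold higher and lower were 22 and 81, and became 14 and 50 without the exclusions, 41 and 230 at a 5 CPM minimum and 891 and 5026 without a minimum, where more genes were tested. With the stricter rule 35 genes were higher. Against 7590 other mesenchymal cells 18 were higher and 38 lower, sharing 11 and 31 genes with the full comparison. That reference leaves out cells with markers of other types while the members keep theirs, and there the mesothelial list turned to 0.44, the Schwann list to 0.82, Myl7 to 1.16, Lrrn4 to 0.44, Upk1b to 1.20, Krt8 to 0.39, Nppa to 1.12 and Upk3b to 1.83. With such cells left out of both sides, which was added once the data had been seen, the Schwann list was 0.36, Myl7 0.24, Upk1b 0.043 and Upk3b 0.43. Other values crossed 0 as well. The cardiomyocyte list, at -0.99, was 0.28 at the 10% mitochondrial limit and 0.63 against other mesenchymal cells, where the macrophage list, at -0.71, was 2.11. The neuron list, at 0.46, was -0.30 with at least 1 UMI of Map2 and of Tbx20 and -0.56 with the rule read on thinned cells, but 1.51 under the stricter rule. Ccl20, at 0.84, was -1.22 with the rule read on thinned cells. The G2 and M phase list, at -0.03, was 0.51 under the stricter rule, 0.31 without the exclusions and -1.45 with the rule read on thinned cells. Myl7 was 0.026 with at least 1 UMI of Map2 and of Tbx20, and the cause of these turns was not tested. No paired analysis was possible because each domain has 1 library, and no replicate could be left out. Depth limits the rule, since 150 cells met it at 8000 UMIs.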
